A study of Homo sapiens with 9 samples.

Results

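The S100 genes encode small calcium-binding proteins, and 10 of them (S100A2, S100A3, S100A4, S100A6, S100A8, S100A9, S100A10, S100A11, S100A14 and S100P) were followed by name among the 23284 gene symbols of the RNA-Seq tables. The cells were HT-29, an established human colon adenocarcinoma line, grown as 9 separate monolayer cultures. In each group 3 cultures received the DMSO vehicle (0 µM, the control), 5 µM or 10 µM 5-aza-2'-deoxycytidine (5-Aza) for 5 days. 5-Aza is a cytidine analog that is built into DNA and traps DNA methyltransferases, so that methylation is lost as cells divide. No group carried any other treatment or genetic change, and a single cell line stood for colon cancer throughout. Levels were FPKM, fragments per kilobase of transcript scaled to the mapped fragments of the library, on the relative scale of the deposited files, and high levels are given in kFPKM (1000 FPKM) and MFPKM (1000000 FPKM).

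S100 proteins carry a pair of EF-hand loops, the helix-loop-helix motif that holds a calcium ion, and most of them work as dimers that open a binding surface for a partner protein when calcium rises. Some bind annexins at membranes, some bind cytoskeletal proteins such as non-muscle myosin, and some leave the cell and act on receptors such as AGER (RAGE) and TLR4. In epithelia, S100A2 is known from basal and squamous keratinocytes, S100P and S100A4 are often raised in carcinomas of the gut, and the S100A8/S100A9 pair (calprotectin) is the main cytosolic protein of neutrophils.

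Of the 10 genes, 9 lie on chromosome 1 and S100P lies on chromosome 4. In GRCh37, the build named hg19 in the labels, the chromosome 1 genes run in the order S100A10 (chr1:151955391-151966335), S100A11 (chr1:152004982-152020383), S100A9 (chr1:153330330-153333499), S100A8 (chr1:153362508-153363549), S100A6 (chr1:153507075-153508720), S100A4 (chr1:153516089-153522612), S100A3 (chr1:153519805-153521734), S100A2 (chr1:153533584-153540366) and S100A14 (chr1:153586731-153589462). S100A9 is on the plus strand and the other chromosome 1 members are on the minus strand. S100P is at chr4:6695605-6698897 on the plus strand. The annotated bounds of S100A3 lie wholly within those of S100A4 on the same strand, so part of either value may come from reads of the other gene.

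The methylation lost under 5-Aza lies at CG dinucleotides, so promoters are shown. They are those of members called higher at 5 µM (S100A2, S100A3), members whose treated cultures all lay below the control (S100A6, S100A10), and 2 others (S100P, S100A9). Each is the RefSeq window from 250 bases before to 50 bases after a transcript start, read 5′ to 3′ along the gene's strand, with every CG in capitals. The windows came from a table built on GRCh38.p14, and each was found exactly once in GRCh37, whose coordinates are given.
S100A2, minus strand of chr1:153538271-153538570: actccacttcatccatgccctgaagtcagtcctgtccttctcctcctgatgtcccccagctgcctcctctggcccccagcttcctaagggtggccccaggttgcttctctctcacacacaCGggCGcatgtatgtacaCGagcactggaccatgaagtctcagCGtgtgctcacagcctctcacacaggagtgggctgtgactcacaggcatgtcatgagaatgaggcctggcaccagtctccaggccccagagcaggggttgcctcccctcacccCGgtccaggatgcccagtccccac
S100A3, minus strand of chr1:153521685-153521984: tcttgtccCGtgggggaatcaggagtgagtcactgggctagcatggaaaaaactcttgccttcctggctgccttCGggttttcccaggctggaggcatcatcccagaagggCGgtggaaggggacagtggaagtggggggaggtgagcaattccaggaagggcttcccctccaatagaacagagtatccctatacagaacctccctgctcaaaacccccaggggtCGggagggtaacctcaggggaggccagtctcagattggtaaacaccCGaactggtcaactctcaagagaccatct
S100A6, minus strand of chr1:153508418-153508717: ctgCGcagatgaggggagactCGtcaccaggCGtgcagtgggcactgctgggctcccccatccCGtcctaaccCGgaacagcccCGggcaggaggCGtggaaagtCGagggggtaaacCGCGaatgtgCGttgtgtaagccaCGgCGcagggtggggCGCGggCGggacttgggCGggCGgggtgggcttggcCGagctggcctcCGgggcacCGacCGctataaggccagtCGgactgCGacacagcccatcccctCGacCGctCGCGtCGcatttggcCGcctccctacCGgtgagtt
S100A10, minus strand of chr1:151966286-151966585: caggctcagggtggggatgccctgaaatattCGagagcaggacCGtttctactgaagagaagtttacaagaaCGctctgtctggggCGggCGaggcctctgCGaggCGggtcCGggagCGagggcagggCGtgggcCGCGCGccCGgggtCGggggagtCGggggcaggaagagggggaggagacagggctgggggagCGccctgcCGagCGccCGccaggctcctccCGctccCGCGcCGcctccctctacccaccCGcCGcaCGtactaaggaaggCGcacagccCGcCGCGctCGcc
S100P, plus strand of chr4:6695355-6695654: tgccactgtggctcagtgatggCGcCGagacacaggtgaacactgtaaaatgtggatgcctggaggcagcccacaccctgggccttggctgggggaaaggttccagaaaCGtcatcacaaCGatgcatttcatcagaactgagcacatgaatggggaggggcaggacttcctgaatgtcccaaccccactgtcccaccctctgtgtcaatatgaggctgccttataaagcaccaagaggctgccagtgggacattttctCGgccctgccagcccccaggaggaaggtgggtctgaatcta
S100A9, plus strand of chr1:153330080-153330379: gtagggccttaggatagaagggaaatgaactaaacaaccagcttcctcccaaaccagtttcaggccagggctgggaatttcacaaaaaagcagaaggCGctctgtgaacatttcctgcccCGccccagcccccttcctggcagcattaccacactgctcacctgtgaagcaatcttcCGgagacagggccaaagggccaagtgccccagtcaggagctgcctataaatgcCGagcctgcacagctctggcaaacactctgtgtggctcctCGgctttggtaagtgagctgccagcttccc
The windows differed widely in CG content. S100A10 held 32 CG dinucleotides, S100A6 held 31 and S100A11 held 22, against a median of 14 over 35116 promoters of the same length. S100A4 held 8, while S100A3, S100A9, S100A14 and S100P held 5 each. The S100A2 window shown held 5 and a second S100A2 window held 4, and 3 S100A8 windows held 2 each. The letters TATAAA, searched on both strands, stood in the windows of S100A4, S100P and S100A9 and in 2 of the 3 S100A8 windows, and in 11.5% of all promoters. They began at position -31 from the start site in S100A4, -29 in S100A9 and -28 in S100P. The letters TGANTCA, the core of an AP-1 element and the same on both strands, stood in S100A3 at position -225 and in the S100A2 window shown at position -52, in no other window of the 10 genes, and in 7.71% of all promoters. Such matches are matches of letters and not measured binding sites.

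Whole-library facts bear on every level below. The FPKM values of a library summed to between 3.69e+09 and 5.91e+09. Symbols above 0 numbered 16373 to 16958 in the control, 18761 to 18957 at 5 µM and 17114 to 17592 at 10 µM. Fragments per unit of FPKM, relative to control replicate 1, stood at 1, 1.51 and 2.14 in the control. They stood at 2.41, 2.29 and 2.57 at 5 µM and at 1.27, 2.01 and 1.70 at 10 µM. Rare transcripts were thus easiest to detect at 5 µM. The part of this in genes seen only there, such as KRT5 and S100Z, was not tested. The median-of-ratios factor, the typical level of a library against the average library, lay between 1.00 and 1.10 except in replicates 1 and 3 of the 10 µM group, at 0.835 and 0.857. The colon epithelial markers EPCAM, CDH1, KRT8, KRT18, KRT20, VIL1, CDX1 and CDX2 were above 0 in every library. Of these 8 markers, KRT8 and KRT18 fell and CDX1 rose at 5 µM, KRT20 and CDX2 fell at 10 µM, and the summed level of the list was 76.3 to 91.4 MFPKM in the control, 30.7 to 35.04 MFPKM at 5 µM and 24.7 to 42.8 MFPKM at 10 µM. KRT8 and KRT18 carried most of the sum, at means of 39.4 and 33.0 MFPKM in the control and 12.6 and 10.6 MFPKM at 5 µM, while EPCAM (-0.23) and CDH1 (-0.06) were not called at 5 µM and overlapped the control. By an adjusted p of at most 0.05 alone, KRT20 (-0.46), VIL1 (-0.47) and CDX2 (-0.73) were also lower at 5 µM, under 2-fold. With the 2 keratins these made 5 of 8 markers, against 17.7% of all genes. All cultures were of a single cell line, and in bulk RNA fewer expressing cells and less RNA per cell cannot be told apart. Differences were tested with limma on log2(FPKM + 1), and a gene was called when the Benjamini-Hochberg adjusted p over all genes tested was at most 0.05 and the difference exceeded 2-fold.

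The members covered most of the range of the transcriptome. In the control, the mean of S100A6 was 30.7 ± 3.88 MFPKM (SD, n = 3) and that of S100P was 19.8 ± 4.73 MFPKM. S100A6 ranked 13 to 19 and S100P 13 to 34 among all symbols over the 9 libraries. S100A4 (ranks 58 to 87), S100A11 (73 to 119), S100A10 (236 to 503) and S100A14 (586 to 1191) followed. S100A2 ranked between 807 and 5760 and S100A3 between 8094 and 11917. S100A9 was above 0 in 5 libraries and S100A8 in 1. In the control the order was S100A6, S100P, S100A4, S100A11, S100A10, S100A14, S100A2, S100A3, S100A9 and S100A8, and only the neighbours S100A4 and S100A11, and S100A9 and S100A8, had overlapping ranges. At 5 µM the first places changed, with S100P above S100A6 in 3 of 3 libraries, and at 10 µM S100A6 was again above S100P in 3 of 3 libraries although their ranges overlapped. FPKM is a level per length of transcript, so these orders compare transcripts and say nothing of protein.

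**Figure D1:**
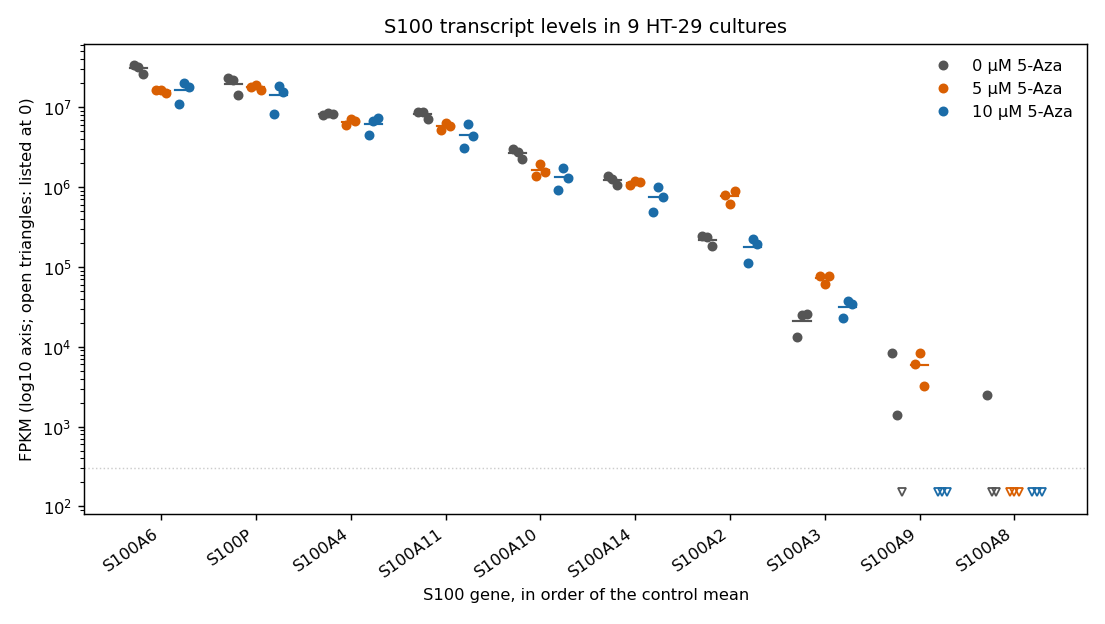
FPKM of the 10 S100 genes on a log10 axis in the 9 cultures, in order of the control mean. Filled points are cultures, bars are group means where no culture is at 0, and open triangles mark cultures listed at 0. S100A2 and S100A3 stand higher at 5 µM (613 to 897 kFPKM and 61.1 to 77.4 kFPKM) than in either other group, while the abundant members S100A6, S100A4, S100A11 and S100A10 lie below their control values at both concentrations.

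S100A2 and S100A3 were the 2 members called higher at 5 µM 5-Aza, out of 10 tested, where 14.1% of all 20051 genes tested were called higher. S100A2 is best known as a nuclear S100 protein of squamous epithelium that binds p53, and S100A3 as a zinc- and calcium-binding protein of the hair cuticle. Both overlapped the control at 10 µM, and both differed between 5 and 10 µM.

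S100A2 was at 241, 237 and 183 kFPKM in the control cultures, at 796, 613 and 897 kFPKM at 5 µM, and at 113, 224 and 192 kFPKM at 10 µM. Every 5 µM culture lay above all 6 others, and the 10 µM cultures overlapped the control. The log2 difference of 5 against 0 µM was 1.80 (SE 0.17, limma adjusted p = 0.000714), a ratio of means of 3.49. That of 10 against 0 µM was -0.37 (SE 0.26, adjusted p = 0.342, limma). From 5 to 10 µM it was -2.17 (SE 0.28, limma adjusted p = 0.00783). The 10 against 5 µM call of S100A2 was lost without 5 µM replicate 1 (-2.13, adjusted p = 0.0521, limma) and without 5 µM replicate 3 (-2.04, adjusted p = 0.0617).

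S100A3 was at 13.1, 25.03 and 25.9 kFPKM in the control, at 77.4, 61.1 and 76.8 kFPKM at 5 µM, and at 22.9, 37.6 and 34.2 kFPKM at 10 µM. The 5 µM cultures again lay above all others, with the lowest control culture at replicate 1. The log2 difference of S100A3 was 1.81 (SE 0.28, limma adjusted p = 0.00373) at 5 µM and 0.60 (SE 0.33, adjusted p = 0.232) at 10 µM against the control. From 5 to 10 µM it was -1.21 (SE 0.22, limma adjusted p = 0.0247), and this call was lost without any single 5 µM culture (limma adjusted p of 0.115, 0.0734 and 0.144 without replicates 1, 2 and 3), while without 10 µM replicate 1 the difference of -0.99 was under 2-fold.

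Values of S100A3 and S100A2 were whole multiples of a common step once the library term was taken out, so the fragments behind them could be counted, as the smallest whole numbers that fit within 0.01 of a fragment plus rounding. S100A3 rested on 9, 26 and 38 fragments in the control, 128, 96 and 136 at 5 µM, and 20, 52 and 40 at 10 µM. S100A2 rested on 237, 351 and 384 fragments in the control, 1880, 1375 and 2267 at 5 µM, while the 10 µM cultures had 141, 442 and 320. The low control value of S100A3 in replicate 1 was thus also the value with the fewest fragments behind it. Summed over a group, S100A3 had 73 fragments in the control (95% exact Poisson interval 57.2 to 91.8) and 360 at 5 µM (324 to 399), with intervals that cover counting error only.

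Ratios within a library do not depend on how libraries were scaled. The ratio of S100A2 to S100A6, the member with the highest control mean, was 0.00716 ± 0.000180 (SD, n = 3) in control cultures, 0.0484 ± 0.0106 at 5 µM and 0.0107 ± 0.000477 at 10 µM. No culture of one group overlapped another, and each pair of groups reached p = 0.1 in a two-sided exact permutation test, the smallest value that 3 against 3 allows. The ratio of S100A3 to S100A4, the gene whose bounds contain it, was 0.00257 ± 0.000809 in control cultures, 0.0109 ± 0.00216 at 5 µM and 0.00513 ± 0.000449 at 10 µM (n = 3 each, exact permutation p = 0.1 for each pair). S100A3 and S100A4 therefore moved apart at 5 µM despite their overlap. The ratio of S100A2 to S100A3 was 11.7 ± 5.997 in the control and 10.7 ± 0.885 at 5 µM (exact permutation p = 1), and was lower at 10 µM, 5.50 ± 0.516, with no overlap with either group (exact permutation p = 0.1 for both).

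**Figure D2:**
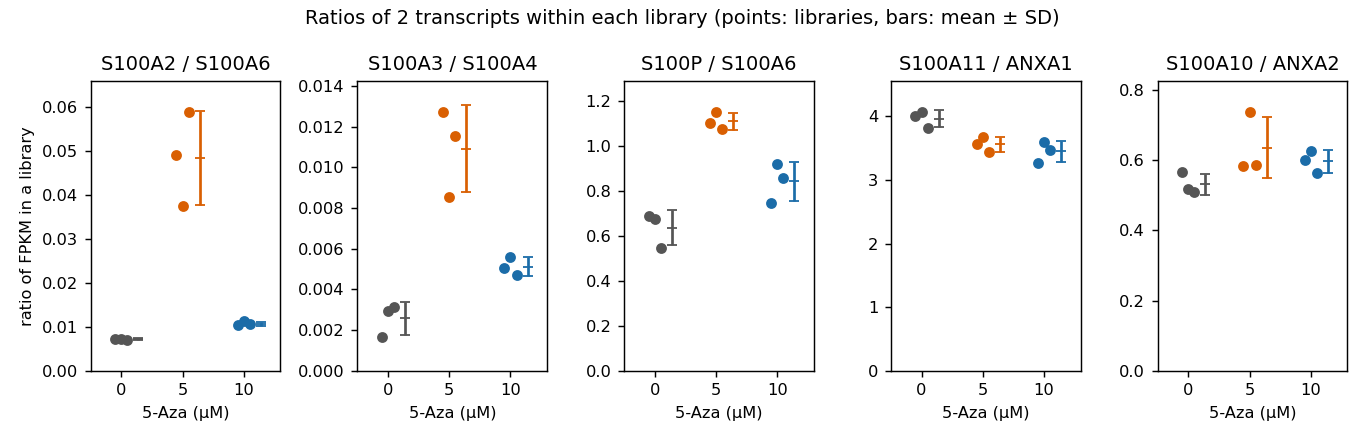
Ratios of the FPKM of 2 transcripts within each library against 5-Aza concentration (µM); points are libraries and bars are the mean ± SD of 3. S100A2 over S100A6 and S100A3 over S100A4 peak at 5 µM, S100P over S100A6 rises from 0.637 to 1.11, and the ratios of S100A11 to ANXA1 and S100A10 to ANXA2 change by far less.

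Marker genes of other cell types were read as levels in HT-29 cultures, beginning with keratinocyte markers beside S100A2 and S100A3. Of the 4 markers, KRT5 was listed at 0 in all control and 10 µM cultures and at 1062, 638 and 284 FPKM at 5 µM, KRT14 rose from 125 to 268 FPKM in the control to 1337 to 2579 FPKM at 5 µM (log2 difference 3.30, SE 0.60, limma adjusted p = 0.00668), KRT1 was at 0 in 8 of 9 libraries, and KRT10 carried nearly all of the sum. The summed level of the list was 91.1 to 145 kFPKM in the control, 98.6 to 112 kFPKM at 5 µM and 40.9 to 111 kFPKM at 10 µM. The fibroblast list (3 of 4 markers called higher at 5 µM, namely COL1A1, COL1A2 and LUM) and the endothelial list (3 of 3, CDH5, PECAM1 and VWF), against 14.1% of all genes, also moved with 5 µM, with sums of 22.5 to 31.9 and 1.90 to 5.03 kFPKM in the control, 80.4 to 86.8 and 9.79 to 12.4 kFPKM at 5 µM, and 43.2 to 51.4 and 3.27 to 3.59 kFPKM at 10 µM. CDH5 was at 0 in the control and 151 to 405 FPKM at 5 µM. COL1A2 was at 0 to 68.7 FPKM in the control and 488 to 834 FPKM at 5 µM. Both were near the floor, where the fitted size depends on the pseudocount, while COL1A1, LUM, PECAM1 and VWF were above 0 in every library. COL1A1 was still called higher at 10 µM, and KRT5, COL1A2 and PECAM1 were called lower from 5 to 10 µM. Their part in the S100A2 and S100A3 results was not tested.

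The calprotectin genes were at the limit of detection. S100A9 was at 8391, 1389 and 0 FPKM in the control, at 6105, 8260 and 3261 FPKM at 5 µM, and listed at 0 in all 3 cultures at 10 µM. These values rested on 4, 1 and 0 fragments in the control and 7, 9 and 4 at 5 µM. S100A9 was called lower from 5 to 10 µM (limma adjusted p = 0.00322), but the fitted log2 difference of -12.42 depends on the pseudocount, at -15.74 with 0.1 and -2.71 with 1000. The 20 fragments at 5 µM, set against a floor of 3 over the 10 µM group and corrected for the library terms, gave a 4.57-fold ratio. That ratio is not a lower bound, since it leaves out the counting error of the 20 fragments. Their exact Poisson interval was 12.2 to 30.9, and that of the 0 fragments at 10 µM was 0 to 3.69. The comparison of 10 µM with the control was not called (limma adjusted p = 0.145), and 4 of the 5 control fragments came from replicate 1. From the control to 5 µM the groups overlapped, and the ratio of 20 to 5 fragments, corrected for the library terms, was 2.56 with a counting interval of 0.931 to 8.72.

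S100A8, the partner of S100A9, was at 2464 FPKM in control replicate 1 and listed at 0 in the other 8 libraries. That value equalled 1.17 times what a fragment is worth at S100A9 in the same library. No difference of S100A8 was called and none could be tested between 5 and 10 µM. Among 6 leukocyte markers, PTPRC (CD45) was at 983 FPKM or less in every library and at 0 in 2 control cultures and 1 at 10 µM, TYROBP was at 0 in all control cultures, and LYZ carried nearly all of the sum, which was 8.57 to 8.82 MFPKM in the control, 3.90 to 4.79 MFPKM at 5 µM and 4.54 to 6.54 MFPKM at 10 µM. ITGAM was called higher at 5 µM (8026 to 11825 FPKM against 446 to 1346 in the control) and at 10 µM (2649 to 5341 FPKM). These too are levels of marker genes in cultures of the HT-29 line alone, and their part in the S100A9 values was not tested.

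The annexin-binding members S100A10 and S100A11 were lower after 5-Aza. S100A10 (p11) forms a heterotetramer with annexin A2 at the plasma membrane and does not bind calcium itself, and S100A11 binds annexin A1. S100A10 was the only member called lower at 10 µM, 1 of 10 tested, where 3.4% of 18928 genes were called lower and 4.07% higher. No member was called higher there.

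S100A10 was at 3.01, 2.74 and 2.26 MFPKM in the control, at 1.37, 1.95 and 1.55 MFPKM at 5 µM, and at 0.931, 1.75 and 1.31 MFPKM at 10 µM. All 6 treated cultures lay below all 3 control cultures, and the treated groups overlapped. The log2 difference of S100A10 was -0.72 (SE 0.17, limma adjusted p = 0.0167) at 5 µM, under 2-fold, and -1.04 (SE 0.27, limma adjusted p = 0.0422) at 10 µM. The 10 µM call was narrow. It was lost without any single control culture, without 10 µM replicate 1 (-0.81) and without 10 µM replicate 3, and under median-of-ratios scaling the difference of -0.80 was under 2-fold (limma adjusted p = 0.0245).

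S100A11 was at 8.67, 8.81 and 7.11 MFPKM in the control, at 5.15, 6.35 and 5.77 MFPKM at 5 µM, and at 3.08, 6.15 and 4.42 MFPKM at 10 µM. The treated cultures again lay below every control culture. Its log2 difference was -0.51 (SE 0.15, limma adjusted p = 0.0343) at 5 µM and -0.90 (SE 0.36, adjusted p = 0.118) at 10 µM. Without 10 µM replicate 2, the highest culture of that group, the 10 µM difference of S100A11 was -1.15 and was called (limma adjusted p = 0.0242).

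The annexin partners lay below the control as well, at 5 µM by less than 2-fold. ANXA2 was at 4.42 to 5.33 MFPKM in the control, 2.35 to 2.65 MFPKM at 5 µM and 1.55 to 2.79 MFPKM at 10 µM, with log2 differences of -0.97 (SE 0.11, limma adjusted p = 0.00127) and -1.21 (SE 0.28, limma adjusted p = 0.0334), and was called at 10 µM. ANXA1 was at 1.86 to 2.17 MFPKM in the control, 1.45 to 1.73 MFPKM at 5 µM and 0.940 to 1.71 MFPKM at 10 µM. Its log2 differences were -0.35 (SE 0.11, limma adjusted p = 0.0406) and -0.70 (SE 0.24, adjusted p = 0.0889), and neither was called. The ratio of S100A10 to ANXA2 was 0.531 ± 0.0302 in control cultures, 0.635 ± 0.0877 at 5 µM and 0.596 ± 0.0323 at 10 µM (n = 3 each), and the 5 µM ratios lay above all control ratios (exact permutation p = 0.1). The ratio of S100A11 to ANXA1 was 3.96 ± 0.131, 3.56 ± 0.119 and 3.45 ± 0.164 in the same order, with both treated groups below the control (exact permutation p = 0.1 for each).

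S100A6 and S100A4 are cytoplasmic S100 proteins. S100A6 (calcyclin) binds CACYBP, and S100A4 (metastasin) binds the heavy chain of non-muscle myosin IIA, the product of MYH9. S100A6 was at 33.5, 32.4 and 26.3 MFPKM in the control, at 16.3, 16.4 and 15.3 MFPKM at 5 µM, and at 10.96, 19.96 and 18.2 MFPKM at 10 µM. At 5 µM the cultures lay close together and below every control culture, 48.0% lower in the mean. At 10 µM they were also below every control culture but spread widely, with replicate 1 lowest. The log2 difference of S100A6 was -0.94 (SE 0.19, limma adjusted p = 0.0109) at 5 µM and -0.95 (SE 0.63, adjusted p = 0.312) at 10 µM, so the adjusted p passed at 5 µM at just under 2-fold. Without control replicate 3 the 5 µM difference was -1.04 and was called (limma adjusted p = 0.00157). CACYBP was at 71.9 to 88.2 kFPKM in the control, 107 to 141 kFPKM at 5 µM and 71.9 to 136 kFPKM at 10 µM, with log2 differences of 0.55 (SE 0.14, limma adjusted p = 0.0225) and 0.29 (SE 0.24, adjusted p = 0.405), neither of them called.

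S100A4 was at 7.94, 8.56 and 8.22 MFPKM in the control, at 6.08, 7.16 and 6.66 MFPKM at 5 µM, and at 4.51, 6.72 and 7.26 MFPKM at 10 µM. Every treated culture was below the control range. The log2 differences of S100A4 were -0.32 (SE 0.12, limma adjusted p = 0.0798) and -0.45 (SE 0.34, adjusted p = 0.376), and neither was called. The binding partner MYH9 was at 1.22 to 1.54 MFPKM in the control and 0.759 to 0.898 MFPKM at 5 µM. That log2 difference was -0.81 (SE 0.12, limma adjusted p = 0.00293), under 2-fold. At 10 µM MYH9 was at 0.559 to 0.971 MFPKM and was called lower (log2 difference -1.04, SE 0.24, limma adjusted p = 0.0319).

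S100P and S100A14 were the members with the smallest differences at 5 µM. S100P, a placental S100 protein that binds ezrin and AGER, was at 23.1, 21.8 and 14.4 MFPKM in the control, at 17.9, 18.8 and 16.4 MFPKM at 5 µM, and at 8.18, 18.4 and 15.6 MFPKM at 10 µM. The groups overlapped, and the widest spread was within the control and the 10 µM groups. The log2 difference of S100P was -0.13 (SE 0.24, 95% interval -0.70 to 0.45, limma adjusted p = 0.673) at 5 µM and -0.54 (SE 0.58, 95% interval -1.89 to 0.80, adjusted p = 0.525) at 10 µM. A 2-fold fall at 10 µM therefore lay within the interval. The ratio of S100P to S100A6 was 0.637 ± 0.0787 in control cultures, 1.11 ± 0.0379 at 5 µM and 0.842 ± 0.0882 at 10 µM (n = 3 each), with no overlap between groups (exact permutation p = 0.1 for each pair). S100A6, its denominator, lay below the control at both concentrations.

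S100A14, a membrane-associated S100 protein of epithelia, was at 1.38, 1.27 and 1.07 MFPKM in the control, at 1.06, 1.2005 and 1.15 MFPKM at 5 µM, and at 0.495, 1.00 and 0.755 MFPKM at 10 µM. The 10 µM cultures lay below all others. The log2 difference of S100A14 was -0.12 (SE 0.11, limma adjusted p = 0.414) at 5 µM and -0.78 (SE 0.27, adjusted p = 0.0840) at 10 µM. Without 10 µM replicate 2 it was -1.02 and was called (limma adjusted p = 0.0184).

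**Figure D3:**
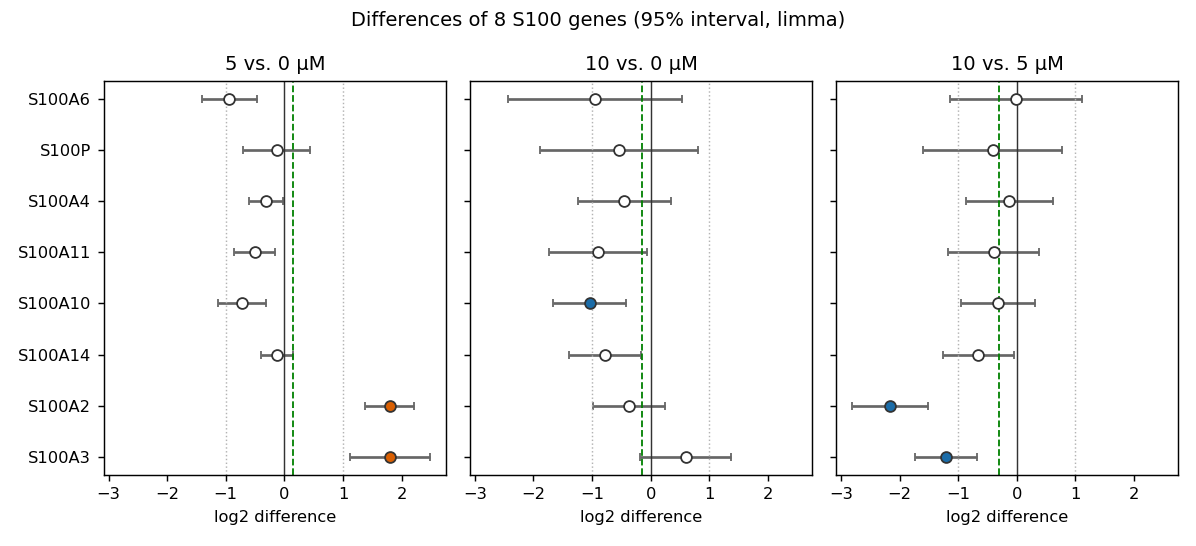
Log2 differences with 95% intervals (limma) of the 8 members detected in every library, for 5 vs. 0 µM, 10 vs. 0 µM and 10 vs. 5 µM. Filled points were called, open points were not, dotted lines mark 2-fold, and the dashed green line is the median of all genes tested (0.14, -0.15 and -0.31); S100A2 and S100A3 stand to the right at 5 µM and to the left from 5 to 10 µM.

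Counted together at 5 µM, 2 members were called higher and 0 lower, against 2.17% of all genes called lower. By the adjusted p alone, S100A6, S100A10 and S100A11 were lower (3 of 10, against 17.7% of all genes), and the cultures of 4 members lay wholly below the control (against 23.2% of all genes). With all 9 samples in a single fit the adjusted p of these 3 genes was 0.154, 0.0580 and 0.217 (limma). Each also missed the adjusted threshold without 1 or more single cultures, at 0.0584 for S100A6 without 5 µM replicate 3, and S100A11 missed it under total scaling (-0.22, limma adjusted p = 0.112). The median log2 difference of the members was -0.22 and that of all genes tested was 0.14. Without control replicate 1 the median of the members was -0.04. Genes abundant in the control were lower as a group, although they were chosen on the same control values that enter the difference. Over the 876 genes with a control mean of at least 1 MFPKM, which include 6 of the members, the median log2 difference was -0.39. Of them, 80.6% were below 0. The differences of S100A6 (-0.94), S100A10 (-0.72) and S100A11 (-0.51) lay below that median, and those of S100A4 (-0.32), S100P (-0.13) and S100A14 (-0.12) above it.

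At 10 µM the cultures of 5 members (S100A4, S100A6, S100A10, S100A11 and S100A14) lay wholly below the control, against 26.7% of all genes. The median over the members was -0.84 and that of all genes was -0.15, while that of the 876 abundant genes was -0.60. The -0.84 includes S100A8 and S100A9, listed at 0 in every 10 µM culture, whose fitted differences depend on the pseudocount. The members' median was -0.66 over the 8 members with at least 10 FPKM in all 3 replicates of a group. With a pseudocount of 1000 it was -0.69. Between 5 and 10 µM, 3 of 9 members tested (S100A2, S100A3 and S100A9) were called lower and 0 higher, where 4.82% of 20085 genes were called lower and 0.129% higher. The comparisons with 0 µM share the control cultures, and those with 5 µM share the 5 µM cultures. Scaling moved these medians: over all genes they were 0.18, 0.08 and -0.11 under median-of-ratios scaling and 0.42, 0.22 and -0.22 under total scaling, for 5 vs. 0, 10 vs. 0 and 10 vs. 5 µM. The median of the members at 5 µM was 0.06 under total scaling and so changed sign, and at 10 µM it was -0.60 and -0.46 under the 2 scalings. Whatever the scaling, S100A2 and S100A3 were called higher at 5 µM.

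Other S100 genes, 11 in all, were mostly rare. S100A7L2 and S100A12 were listed at 0 in every library. S100Z, an S100 gene on chromosome 5, was called higher at 5 µM and lower from 5 to 10 µM, on 4, 3 and 2 fragments at 5 µM and 0 in the other 6 libraries. S100A16, next to S100A2 and S100A14 on chromosome 1, was at 1.08 to 1.54 MFPKM in the control, 0.709 to 0.824 MFPKM at 5 µM and 0.366 to 0.690 MFPKM at 10 µM, and was called lower at 10 µM (log2 difference -1.32, SE 0.26, limma adjusted p = 0.0211). S100A7 (psoriasin), whose protein is abundant in inflamed skin, rested on 6, 2 and 0 fragments at 5 µM and was not called.

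Along chromosome 1 the genes higher at 5 µM stood among genes that were not. S100A2 and S100A3 are neighbours, with S100A4, S100A5 and S100A6 on one side and S100A16, S100A14 and S100A13 on the other, none of which was called higher. S100A1, which overlaps S100A13, was at 26.1 to 37.2 kFPKM in the control and 50.9 to 60.8 kFPKM at 5 µM. Its log2 difference of 0.87 (SE 0.16, limma adjusted p = 0.00626) was under 2-fold and was not called. Between S100A11 and S100A9 lies the epidermal differentiation complex, whose genes build the cornified envelope of skin. Of 16 genes of that complex and of the fused S100-type family, 13 were tested at 5 µM and 5 were called higher: HRNR, IVL, SPRR1A, SPRR1B and SPRR2D, where 14.1% of all genes were. HRNR (0 to 81.0 FPKM) and SPRR2D (0 to 2287 FPKM) had control values at 0, so their fitted sizes depend on the pseudocount. IVL, SPRR1A and SPRR1B were above 0 in every library. IVL (involucrin) was at 397 to 929 FPKM in the control, 5554 to 7400 FPKM at 5 µM and 6295 to 12049 FPKM at 10 µM, and was also called higher at 10 µM (log2 difference 3.91, SE 0.54, limma adjusted p = 0.00851). SPRR1B was at 9963 to 26326 FPKM in the control and 95.02 to 161 kFPKM at 5 µM (log2 difference 3.10, SE 0.39, limma adjusted p = 0.00164). From 5 to 10 µM, 2 genes of this list (SPRR2D and SPRR3) of 13 tested were called lower, against 4.82% of all genes, whereas LOR (loricrin) was listed at 0 in all 9 libraries.

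**Figure D4:**
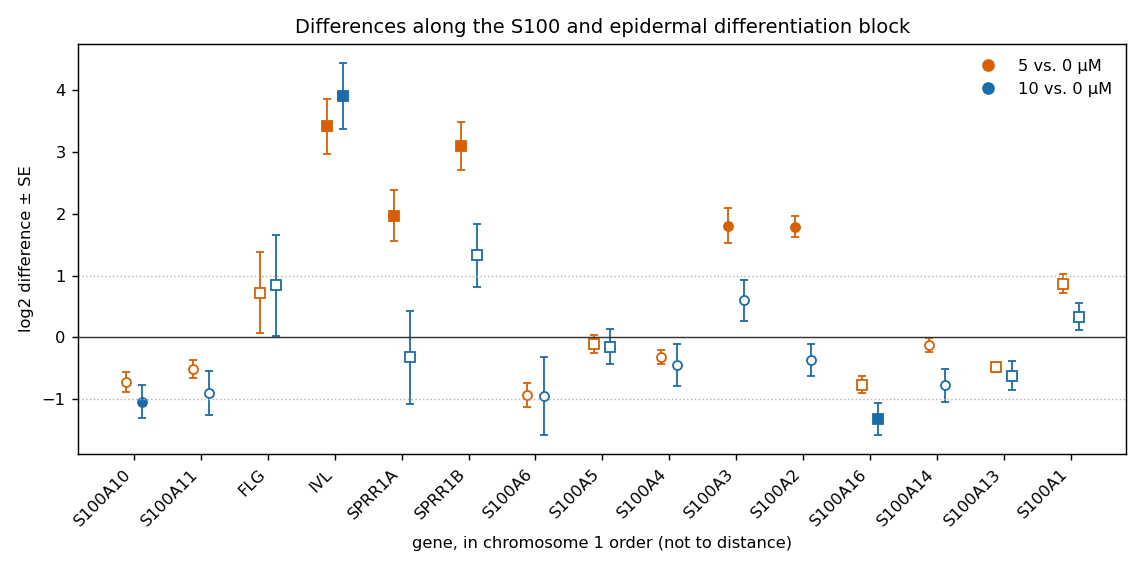
Log2 difference ± SE (limma) at 5 and 10 µM against the control for the S100 genes (circles for the members, squares for others) and epidermal differentiation genes of chromosome 1 that were above 0 in all 9 libraries, in chromosome order and not to distance. Filled symbols were called; IVL, SPRR1A, SPRR1B, S100A3 and S100A2 are filled at 5 µM, and IVL, S100A10 and S100A16 at 10 µM.

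Binding partners and receptors gave 12 genes tested. At 5 µM ANXA6 was called higher and AHNAK lower, and the median log2 difference was -0.47. By the adjusted p alone 7 of 12 were lower, against 17.7% of all genes. In the same way 2 of 12 (ANXA6 and CACYBP) were higher, where 4263 of all 20051 genes were. ANXA6, a calcium-dependent membrane-binding annexin, was at 2661 to 4593 FPKM in the control, 18081 to 19185 FPKM at 5 µM and 5398 to 6098 FPKM at 10 µM, called higher at 5 µM (log2 difference 2.39, SE 0.25) and lower from 5 to 10 µM (-1.68, SE 0.21; limma adjusted p = 0.000933 and 0.00779). At 10 µM AHNAK, ANXA2, ANXA11 and MYH9 were called lower, 4 of 12, against 3.4% of all genes. AHNAK is a large scaffold protein bound by the S100A10 and annexin A2 complex, and its log2 differences were -1.07 (SE 0.17) and -1.34 (SE 0.27). The receptor gene AGER was at 55.8 to 74.1 kFPKM in the control and 28.1 to 44.7 kFPKM at 5 µM (-0.93, limma adjusted p = 0.0146), under 2-fold, and TLR4 was at 1924 to 3615 FPKM over all 9 libraries with no call.

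Of 16 other EF-hand genes, such as calmodulins and calpains, 15 were tested. CALB1 (calbindin), on low values, was called higher at 5 µM, and CAPN2, the large subunit of m-calpain, was called lower at 10 µM (log2 difference -1.05, SE 0.18, limma adjusted p = 0.0159). The median log2 difference of the list was -0.48 at 5 µM and -0.59 at 10 µM, beside -0.22 and -0.84 for the members. Without S100A8 and S100A9 the median of the members at 10 µM was -0.66.

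The members with CG-rich promoter windows were those lower at 5 µM by the adjusted p of the pairwise fit. None of them passed it with all 9 samples in a single fit. S100A10, S100A6 and S100A11 held 32, 31 and 22 CG and differed by -0.72, -0.94 and -0.51, whereas S100A2 and S100A3, at 5 CG or fewer, differed by 1.80 and 1.81. The CG-poor S100A4, S100A14 and S100P lay between, at -0.32, -0.12 and -0.13. Like the CG-rich members, they had control means above 1 MFPKM. The parts of level and CG content were not tested. Other S100 genes did not all follow this order, since S100A16 held 3 and 8 CG in its windows and differed by -0.77 (limma adjusted p = 0.00676). Of the 20051 genes tested at 5 µM, 13002 were matched to a promoter window. Over matched genes above 0 in every library, the median log2 difference at 5 µM was -0.10 for 7570 genes with at least 20 CG and 0.27 for 1086 genes with at most 8. Of these, 8.43% and 20.4% were called higher, and 2.27% and 5.16% were called lower, so that calls in both directions were more frequent among CG-poor windows. Over all matched genes tested, with values at 0 included, the medians were -0.04 (8507 genes) and 2.11 (2361 genes). Methylation itself was not measured in these files.

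Across the 9 libraries the abundant members varied together, a description in which library scale is shared. Pearson's r was 0.98 between S100A10 and S100A11, 0.93 between S100A6 and S100A10 and 0.92 between S100A14 and S100P. It was 0.82 between S100A2 and S100A3, and -0.17 between S100A2 and S100A6. Among 15277 genes above 0 in every library, those most like S100A2 were MARCH3 (r = 0.987), KLK10 (0.986) and TACC3 (0.984). Those most like S100A3 were PSORS1C2 (0.989), KLK8 (0.979) and FAIM2 (0.977), and those most like S100P were MRPL43 (0.996), MINOS1 (0.991) and PFDN2 (0.989). KLK8 and KLK10 encode kallikrein-related peptidases.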

How the data were processed

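Paired-end reads of RNA from 9 HT-29 cultures were trimmed by the authors with FASTX-Toolkit. TopHat placed them on hg19, and Cufflinks gave FPKM per gene. The deposited FPKM values, 1 table per sample, were used. The annotation version, the use of strand and the library term are not given in the sources used here. FPKM are relative. The paper gives a range of reads over the samples, and the depth of each library is unknown apart from the fragment steps below.

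Groups were taken from the sample titles. Repeated symbols were summed (24934 entries, 23284 symbols). Genes with at least 10 FPKM in a sample of either group were fitted pairwise with limma 3.58.1 (trend) in R 4.3.3 on log2(FPKM + 1). Since 1 fragment is worth far more than 1 FPKM, a pseudocount of 1 inflates the fitted difference of a gene against a group with values at 0. P-values were adjusted by Benjamini-Hochberg and calls needed at most 0.05 and over 2-fold. The code was tested on simulated data. The value of 1 fragment in a library was taken as the smallest value above 0 among 12 genes of 110 nt. All 46 of 46 values above 0 were whole multiples of it within 0.01, the smallest in each library by construction. A smallest value of more than 1 fragment is not excluded by this. Ratios were compared by two-sided exact permutation tests. Promoters were from RefSeq (GRCh38.p14) and positions from GENCODE on GRCh37.

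The 10 members and all lists were chosen with earlier results of these data known. All members were named, with every listed gene that was called and, for 3 members, the 3 genes of highest r. Where a list gene or a marker that was not called is named, it was chosen after its values were seen. Alternatives covered the pseudocount, filter, fold threshold, treat, a single fit, the replicate block, 2 scalings, repeated symbols and leaving out each culture.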

Additional observations from a re-analysis of the deposited data

Results flagged for a closer look

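Between the 2 concentrations, 3 members differed in the opposite direction from a simple increase with dose, by a test of the 10 against 5 µM difference itself (limma). The log2 difference was -2.17 for S100A2, -1.21 for S100A3 and -12.42 for S100A9. The S100A9 value depends on the pseudocount, since no fragment was seen at 10 µM. In replicates 1 and 3 of the 10 µM group the typical level over all genes was also low (factors of 0.835 and 0.857), and under median-of-ratios scaling all 3 members were still called lower. The part of these library levels in the results was not tested beyond that.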

How the results depend on the processing

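The 2 members called higher at 5 µM were called under every alternative run except a test against 2-fold (treat), which called 1. Members called lower at 5 µM numbered 0, and 3 with no fold threshold. At 10 µM the 1 member called lower became 0 with no filter, with treat, with the replicate block, and under median-of-ratios and total scaling. From 5 to 10 µM the 3 members called lower became 1 with treat. Leaving out a culture gave 0 to 1 members lower at 5 µM, 0 to 3 at 10 µM and 1 to 3 from 5 to 10 µM. The lost S100A3 call under the replicate block had limma adjusted p = 0.0642, and that of S100A10 0.0686. The sample titles number the cultures but name no pairing, and the main fit used none. Deviations from group means correlated at -0.0743 to 0.086 in 9 same-number pairs and at -0.156 to 0.1 in 18 others, over 15278 genes. Same-number pairs thus did not stand out. A batch that does not follow the numbers cannot be seen in this way.

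Directions that turned were all of differences that were not called. Total scaling gave 0.16 for S100A14 and 0.16 for S100P at 5 µM, 0.0092 for S100A2 at 10 µM and 0.081 for S100A6 from 5 to 10 µM. Median-of-ratios scaling gave 0.071 for S100A4 and 0.19 for S100A6 from 5 to 10 µM. Without a culture, S100A4 lay between -0.26 and 0.079 and S100A6 between -0.18 and 0.25 in that comparison, with S100A6 at 0.0031 and 0.0064 without 5 µM replicates 1 and 2. Over single members and alternatives, 451 values kept direction and side of the threshold, 20 lost the call and 7 gained it.

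Counts over all genes moved more at 10 µM. Higher and lower calls were 771 and 644, against 1125 and 284 under median-of-ratios scaling, 1363 and 164 under total scaling, and 145 and 16 with treat. A single fit of all 9 samples called 1174 higher at 10 µM, and no fold threshold gave 1837 lower. Leaving out a culture moved the lower count to between 165 and 1500 at 10 µM and to between 176 and 1873 from 5 to 10 µM (969 with all cultures), with 416, 443 or 337 higher at 10 µM without control replicate 2 or 10 µM replicates 1 or 3. At 5 µM the 2818 higher and 436 lower became 1463 and 70 with treat, 4263 and 3553 with no fold threshold, and 167 lower under total scaling. From 5 to 10 µM the replicate block gave 11 higher and 407 lower, against 26 and 969, and treat gave 7 and 374. The 26 higher became 64 with no fold threshold, 55 and 42 under the median-of-ratios and total scalings, and 12 to 64 without a culture. The cause of these shifts was not tested. Depth limits S100A8 and S100A9, which rest on few fragments or none.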
